A study of Mus musculus with 2 samples.

Results

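Imprinted genes are transcribed mainly from the copy inherited from one parent. The genes described here were 34 mouse genes known to be imprinted, listed by name, and each was read through every probe set of the array that is annotated to that gene alone. Of the 34 genes, 30 had such a probe set, 84 probe sets in all, among 18193 genes measured in the same way. The samples were haematopoietic stem cells, which live in bone marrow and renew every kind of blood cell, from Wip1 knockout mice of 3 months and from wild-type mice of 3 months. Wip1 is the phosphatase encoded by Ppm1d and is known as a negative regulator of p53. Each genotype was measured on 1 Affymetrix expression array, so differences carry no test and no p-value. Strain, sex, how the knockout allele was made, how the cells were sorted and how many animals were pooled are not stated in the labels.

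Imprinted expression depends on control regions whose DNA is methylated in either the egg or the sperm, and neighbouring imprinted genes often share such a region. Many of these genes act on growth: as a rule paternally expressed genes favour fetal growth and maternally expressed ones restrain it. In mouse blood stem cells the Dlk1-Dio3 locus, which holds Meg3, is known to restrain PI3-kinase and mTOR signalling through its microRNAs, and H19 is known for keeping stem cells quiescent. An expression array sums the transcripts of both copies, so it does not show which parental allele a signal came from. In RNA of bulk samples, fewer cells that express a gene and less RNA per cell cannot be told apart.

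The promoters of 5 genes on which the results turn are shown here for their motifs and CpG content. Meg3, Igf2r, Phlda2 and Grb10 were the members measured above the floor on both arrays that differed by at least 1.5-fold in their brightest probe set. Ndn was higher in every one of its probe sets that lay above the floor on both arrays. The sequences are RefSeq's, build GRCm38.p6, and run 5′ to 3′ on the gene's own strand from 250 bases before the annotated start to 50 bases after it. Capitals mark the letters TGACGTCA (the cAMP response element), CACGTG (an E-box) and TGCCGC (the core bound by the imprint-keeping protein ZFP57 when methylated), searched on both strands.
Meg3, upstream start, chr12:109540746-109541045, plus strand: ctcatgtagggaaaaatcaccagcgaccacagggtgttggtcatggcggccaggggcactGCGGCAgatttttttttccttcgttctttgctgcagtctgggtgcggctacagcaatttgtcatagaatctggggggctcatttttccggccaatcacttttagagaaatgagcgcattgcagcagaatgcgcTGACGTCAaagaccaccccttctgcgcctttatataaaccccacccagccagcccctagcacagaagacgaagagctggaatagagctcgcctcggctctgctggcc
Meg3, downstream start, chr12:109545148-109545447, plus strand: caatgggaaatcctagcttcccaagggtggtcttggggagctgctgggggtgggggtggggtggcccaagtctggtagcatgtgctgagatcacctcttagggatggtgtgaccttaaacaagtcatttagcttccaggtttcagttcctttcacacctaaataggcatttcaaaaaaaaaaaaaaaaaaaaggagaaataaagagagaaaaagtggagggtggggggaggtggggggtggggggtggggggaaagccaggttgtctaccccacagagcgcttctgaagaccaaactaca
Igf2r, chr17:12769657-12769956, minus strand: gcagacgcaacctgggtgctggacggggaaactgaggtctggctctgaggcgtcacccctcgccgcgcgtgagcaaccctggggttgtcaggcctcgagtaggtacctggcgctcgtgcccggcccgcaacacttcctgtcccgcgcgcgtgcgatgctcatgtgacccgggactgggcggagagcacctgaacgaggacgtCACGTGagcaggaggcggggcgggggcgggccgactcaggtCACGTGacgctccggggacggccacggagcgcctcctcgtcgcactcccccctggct
Ndn, chr7:62348027-62348326, plus strand: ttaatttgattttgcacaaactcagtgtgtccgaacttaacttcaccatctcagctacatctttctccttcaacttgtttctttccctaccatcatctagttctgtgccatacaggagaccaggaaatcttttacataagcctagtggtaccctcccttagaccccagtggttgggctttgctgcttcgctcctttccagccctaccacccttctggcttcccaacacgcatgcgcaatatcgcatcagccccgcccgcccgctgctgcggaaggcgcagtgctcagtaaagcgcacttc
Grb10, upstream start, chr11:12037371-12037670, minus strand: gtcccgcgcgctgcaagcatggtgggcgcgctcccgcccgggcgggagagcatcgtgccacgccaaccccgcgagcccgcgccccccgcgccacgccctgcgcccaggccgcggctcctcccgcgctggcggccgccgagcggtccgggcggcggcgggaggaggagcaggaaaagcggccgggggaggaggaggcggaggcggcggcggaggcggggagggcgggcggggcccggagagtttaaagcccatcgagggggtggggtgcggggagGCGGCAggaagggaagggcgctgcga
Phlda2, chr7:143502475-143502774, minus strand: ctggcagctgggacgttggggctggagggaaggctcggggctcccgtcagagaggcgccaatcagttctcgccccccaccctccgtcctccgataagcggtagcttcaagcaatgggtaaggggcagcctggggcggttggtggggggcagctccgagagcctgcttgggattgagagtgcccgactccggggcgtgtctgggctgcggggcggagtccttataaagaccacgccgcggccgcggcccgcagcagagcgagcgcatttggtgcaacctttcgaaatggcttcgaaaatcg

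The upstream Meg3 window held the cAMP response element, whose first base lies 57 bases before the start. Of 32851 promoter windows of the same length, 1.79% hold it. The same window held TGCCGC on the other strand, as did the upstream Grb10 window, against 11.6% of all windows. Igf2r had 2 E-boxes, a motif found in 7.15% of all windows. The windows of Ndn and Phlda2 and the downstream windows of Meg3 and Grb10, the last not printed, held none of the 3. CpG dinucleotides, the sites of DNA methylation, numbered 13 in the upstream and 1 in the downstream Meg3 window, 34 for Igf2r, 11 for Ndn, 45 in the upstream and 9 in the downstream Grb10 window and 26 for Phlda2, with a median of 7 over all windows. These matches describe the letters and not the binding of any factor.

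Meg3, a long noncoding RNA of the Dlk1-Dio3 locus that in human cells is known to raise p53 activity, was the imprinted gene that differed most. Its brightest probe set was 4.62-fold higher in the knockout, a log2 difference of 2.21, which placed Meg3 in position 3 from the top among 11440 detected genes. A gene was called detected when its brightest probe set lay above the array's median intensity, the floor, on at least 1 array (25.9 for the knockout and 25.2 for the wild type). The lysosomal and growth factor receptor gene Igf2r was also higher, at 1.90-fold, while Phlda2, which limits growth of the placenta, and Grb10, an inhibitor of insulin and IGF signalling, were lower at log2 differences of -0.76 and -0.69. Of the other members with both arrays above the floor, none reached 1.5-fold in its brightest probe set (by mean log2 intensity). Rian, under the floor in the wild type, was at least 1.43-fold higher and could lie on either side of 1.5-fold. The file offers 1 kind of error, how far probe sets for the same gene disagree, with an SD of 0.21 on the log2 scale over 4761 genes, and it holds no variation between animals or arrays.

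**Figure D1:**
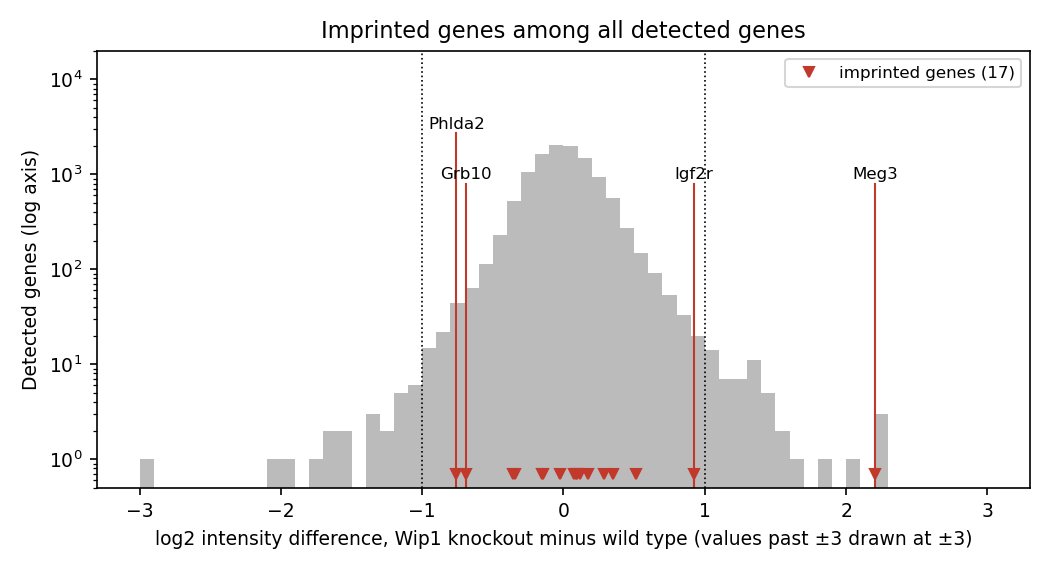
Histogram of the log2 intensity difference, Wip1 knockout minus wild type, over 11440 detected genes (log count axis), with triangles for the 17 detected imprinted genes and dotted lines at 2-fold. Meg3 lies at 2.21, Igf2r at 0.92, Grb10 at -0.69 and Phlda2 at -0.76, and the other triangles lie nearer to 0.

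In all, 17 members were detected, of which 10 were higher and 7 lower in the knockout, where 11440 of 18193 genes in all were detected, 5672 higher and 5716 lower. In their brightest probe sets, Rian, Dlk1, Igf2 and Mest passed the floor on the knockout array only and Plagl1 on the wild-type array only. The floor thus fixed the sign of their differences. Meg3 alone was at least 2-fold higher, 1 of 17, and 0 were at least 2-fold lower, against 0.455% and 0.21% of all detected genes. At 1.5-fold, 2 members were higher (Meg3 and Igf2r) and 2 lower (Phlda2 and Grb10), against 2.3% and 1.55% of all detected genes. With a floor at the 25th percentile Rian stood at 0.64 on the log2 scale, past 1.5-fold too. The median log2 difference of the 17 was 0.09, and 0.08 without Meg3, against 0.00 over all detected genes. Tssc4, Ube3a, Copg2, Gnas and Impact stayed within that SD in their brightest probe sets, and Dlk1, Igf2 and Mest have bounds under it that do not settle their size. With such bounds counted, 47.1% of the detected members lay within the SD, against 65.3% of all detected genes. The members were chosen by name as imprinted genes, with earlier results of these data known, and their shares rest on 17 genes.

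The 11 Meg3 probe sets did not move together. Probe set 1439380_x_at read 329 in the knockout and 71.9 in the wild type. Probe set 1452905_at read 323 in the knockout and 54.6 in the wild type, a log2 difference of 2.58. Probe set 1452183_a_at read 156 in the knockout and 36.2 in the wild type, a log2 difference of 2.12. These 3 were the ones at least 2-fold higher, and all 3 lay above the floor on both arrays.

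Among the other Meg3 probe sets, 1426758_s_at was 1.65-fold higher, with 55.0 in the knockout and 33.6 in the wild type. Probe set 1429257_at read 45.6 in the knockout and 43.4 in the wild type, a log2 difference of 0.08 that is smaller than the SD between probe sets. Probe set 1428764_at went the other way, with 18.8 in the knockout, under the floor, and 26.9 in the wild type, so that it was lower by at least 0.04 on the log2 scale. The SD of the log2 difference over the 6 detected Meg3 probe sets was 1.16, against 0.21 for probe sets of a gene in general. The sets differ, since the 1.16 includes the bound of 1428764_at and the 0.21 rests on probe sets above the floor on both arrays.

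The remaining 5 Meg3 probe sets lay under the floor on both arrays and give no difference. Probe set 1436057_at read 25.2 in the knockout and 21.4 in the wild type, and 1452906_at read 18.1 in the knockout and 21.3 in the wild type. Probe set 1429256_at held the value 10.8 on both arrays. Probe set 1428765_at read 9.34 in the knockout and 10.6 in the wild type, and 1436713_s_at read 11.6 in the knockout and 7.39 in the wild type. No probe set under the floor on both arrays was above 25.2.

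**Figure D2:**
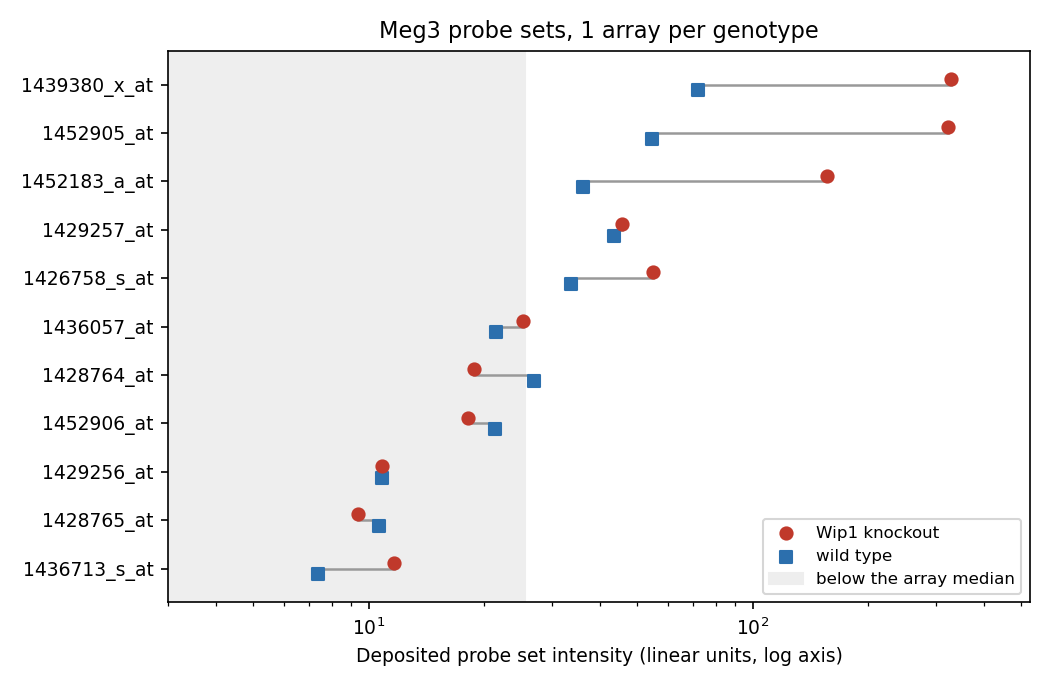
Deposited intensity (log axis) of each of the 11 Meg3 probe sets on the Wip1 knockout array (circles) and the wild-type array (squares), with the range below the array medians in grey. The 3 probe sets at the top are 156 to 329 in the knockout and 36.2 to 71.9 in the wild type, and the other 8 are at most 55.0 on either array.

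Probe sets designed from the same source sequence split between these groups. The annotation gives a shared source for 1452905_at (log2 difference 2.58), 1428764_at and 1428765_at, of which only the first was higher. A second source is shared by 1452183_a_at (2.12) and 1426758_s_at (0.72). Which Meg3 isoform or which part of the transcript each probe set reads is not stated in the annotation used. The median over the 6 detected probe sets was 1.42. When the _s_at, _x_at and _a_at classes, which can match more than 1 transcript, are left out, 3 detected Meg3 probe sets remain, with a median of 0.071 and with 1452905_at still at 2.57. Of 2065 genes with at least 3 detected probe sets, 3 had at least 3 probe sets that were 2-fold higher (Dntt, Itgb5 and Meg3) and 0 had as many that were 2-fold lower.

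RefSeq places 3 mature microRNAs within the span of Meg3, 6 within Rian and 19 within Mirg. Those of Meg3 are printed because this is the transcript that differed most. Levels of mature microRNAs were not analysed here. Capitals mark the seed, bases 2 to 8, and the 3 seeds differ from each other.
mmu-miR-1906, chr12:109544588-109544609, plus strand: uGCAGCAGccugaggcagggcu
mmu-miR-770-5p, chr12:109563710-109563731, plus strand: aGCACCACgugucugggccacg
mmu-miR-770-3p, chr12:109563744-109563765, plus strand: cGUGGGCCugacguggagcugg

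The other genes of the Dlk1-Dio3 locus were dim. Rian, the maternally expressed RNA that hosts small nucleolar RNAs, read 35.8 in the knockout and 23.1 in the wild type in probe set 1452899_at, at least 0.52 higher on the log2 scale since the wild-type value lay under the floor. Its probe set 1427580_a_at lay at the floor, with 25.8 in the knockout and 25.3 in the wild type, and its other probe sets lay under it. Mirg, the maternally expressed host of many microRNAs, was under the floor in both of its probe sets on both arrays, with intensities between 18.0 and 22.9. Dlk1, the paternally expressed membrane protein related to Notch ligands, read 28.2 in the knockout and 21.9 in the wild type in 1 probe set, at least 0.18 higher, and 7.86 on both arrays in the other. Rtl1, a retrotransposon-derived gene, and Dio3, the deiodinase that inactivates thyroid hormone, had no probe set annotated to them alone. Thus 3 of the 4 measured genes of the locus were detected, and of their brightest probe sets only that of Meg3 lay above the floor on both arrays. Those of Rian and Dlk1 passed the floor on the knockout array only, which fixes the sign of their bounds.

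Igf2r, the mannose 6-phosphate receptor that carries enzymes to lysosomes and removes the growth factor Igf2, is expressed from the maternal copy. Probe set 1424112_at read 207 in the knockout and 110 in the wild type, and 1424111_at read 103 in the knockout and 65.8 in the wild type. Both were higher in the knockout, by 0.92 and 0.65 on the log2 scale. Airn, the paternally expressed antisense RNA that silences the paternal Igf2r copy, was under the floor in all 5 of its probe sets, with intensities from 7.45 to 25.8. Igf2, the paternally expressed fetal growth factor, read 26.8 in the knockout and 22.4 in the wild type in its brighter probe set, at least 0.10 higher, and lay under the floor in the other. H19 had no probe set of its own. The probe set it shares with Mir675 read 8.52 on both arrays.

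Of the genes governed by the Kcnq1ot1 domain, Phlda2 read 74.0 in the knockout and 126 in the wild type in its only probe set, a log2 difference of -0.76. A floor at the 75th percentile, which the knockout value does not reach, leaves only a bound for Phlda2, lower by at least 0.12. Tssc4, in human cells a chaperone of splicing particles, read 242 in the knockout and 270 in the wild type, a log2 difference of -0.15, within the SD between probe sets. Ascl2, a transcription factor of trophoblast, was under the floor in all 3 probe sets, at 4.73 to 13.3. All 3 are maternally expressed, and both detected ones had lower values in the knockout.

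In the Snrpn-Ube3a region, Ndn was higher in the knockout in all 4 of its probe sets that lay above the floor on both arrays. Ndn encodes necdin, a growth suppressor that binds p53 and E2F1 and in mice is known for limiting the cycling of blood stem cells. Probe set 1435382_at read 109 in the knockout and 72.2 in the wild type, and 1437853_x_at, the brightest by mean log2 intensity, read 97.9 in the knockout and 80.9 in the wild type. Their log2 differences were 0.61 and 0.29, and on the mean of linear intensities 1435382_at, at 1.52-fold, would be the brightest instead. Probe set 1435383_x_at read 99.2 in the knockout and 65.5 in the wild type, and 1455792_x_at read 99.4 in the knockout and 75.4 in the wild type. Each of these 4 was higher, by 0.29 to 0.61 on the log2 scale. Probe set 1415923_at read 41.2 in the knockout and 24.3 in the wild type, at least 0.72 higher. It passed the floor on the knockout array only, which fixes its sign. The median over the 5 detected probe sets was 0.61, and the other 3 Ndn probe sets lay under the floor.

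Ube3a, a ubiquitin ligase expressed from the maternal copy in neurons and from both copies elsewhere, was bright in probe set 1416680_at, with 607 in the knockout and 682 in the wild type. Its 4 detected probe sets ranged from -0.45 to 0.17 on the log2 scale and so went both ways. The paternally expressed Magel2 and Peg12 and the 1 probe set annotated to Snrpn alone lay under the floor, between 11.5 and 15.5. Snrpn encodes a splicing protein, and probe sets shared by Snurf and Snrpn were bright. The brightest of them read 997 in the knockout and 1002 in the wild type, and the next read 422 in the knockout and 379 in the wild type, differences of 0.01 and 0.17 on the log2 scale.

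Grb10, expressed from the maternal copy in most tissues and the paternal one in neurons, is also known as a target of mTOR complex 1. Its detected probe set 1425458_a_at read 188 in the knockout and 307 in the wild type, a log2 difference of -0.69. The other 2 Grb10 probe sets lay under the floor, with 15.4 in the knockout and 21.2 in the wild type for 1425457_a_at and 11.5 in the knockout and 12.2 in the wild type for 1430164_a_at. Plagl1, a paternally expressed zinc finger gene that can arrest the cell cycle, read 22.8 in the knockout and 33.1 in the wild type, at least 0.34 lower, with its other 2 probe sets under the floor. Dcn, the matrix proteoglycan decorin, maternally expressed in placenta, read 32.1 in the knockout and 41.6 in the wild type, a log2 difference of -0.36.

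Gnas encodes the stimulatory G protein alpha subunit, expressed from both copies in most tissues, and its locus also makes imprinted transcripts. Probe set 1450186_s_at read 2873 in the knockout and 2730 in the wild type, a log2 difference of 0.09. Probe set 1443375_at was 1.81-fold higher, with 286 in the knockout and 159 in the wild type, and 1453413_at read 148 in the knockout and 122 in the wild type. The size of the Gnas difference therefore depends on the probe set, from 0.09 to 0.85, and Gnas stood at 0.84 with _s_at, _x_at and _a_at probe sets left out.

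Impact, a paternally expressed gene whose protein holds back the stress kinase Gcn2, showed the same kind of split. Probe set 1415911_at read 248 in the knockout and 254 in the wild type, and 1446751_s_at read 45.5 in the knockout and 40.9 in the wild type. Probe set 1446750_at was 2.47-fold higher, with 235 in the knockout and 96.2 in the wild type. With it, 4 of the 35 detected member probe sets passed 2-fold upward and 0 downward, against 0.533% and 0.196% of 19906 detected probe sets of 1 gene. Among 2816 detected probe sets that the annotation assigns to no gene, 73 were at least 2-fold higher in the knockout and 1 at least 2-fold lower. What underlies these counts, and the split among the Impact and Gnas probe sets, was not tested.

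Sgce, the paternally expressed epsilon-sarcoglycan, read 114 in the knockout and 90.0 in the wild type, 0.35 higher on the log2 scale. A floor at the 75th percentile, which the wild-type value does not reach, leaves only a bound for Sgce, at least 0.07 higher. Copg2, a subunit of the coat of transport vesicles, read 167 in the knockout and 160 in the wild type. Mest, a paternally expressed gene of the hydrolase fold family, read 27.1 in the knockout and 24.7 in the wild type, at least 0.12 higher. The Copg2 difference was within the SD between probe sets.

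**Figure D3:**
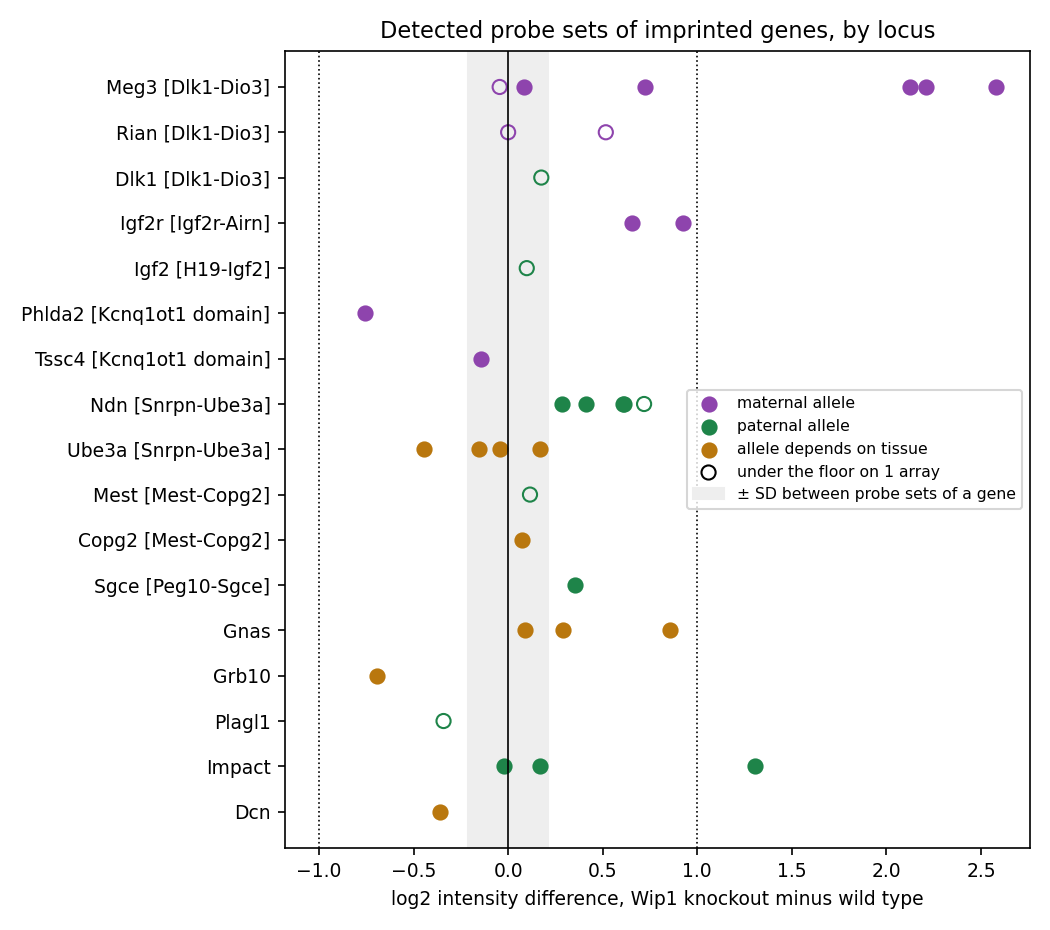
Log2 intensity difference, Wip1 knockout minus wild type, of each of the 35 detected probe sets of imprinted genes, 1 row per gene, coloured by the expressed parental allele, with open circles where 1 array was under the floor (a bound, or 0 where no bound could be given). The grey band is the SD between probe sets of one gene (0.21) and dotted lines mark 2-fold. Meg3 probe sets spread from -0.04 to 2.58, whereas those of Ndn lie between 0.29 and 0.72.

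A total of 13 members lay under the floor on both arrays in all 27 of their probe sets, with intensities of 4.33 to 25.8. Beside Mirg, Airn, Ascl2, Magel2, Peg12 and Snrpn, they were the whole Peg3 domain (the zinc finger genes Peg3 and Zim1 and the ubiquitin protease gene Usp29), the retrotransposon-derived Peg10, the ubiquitin ligase subunit gene Asb4, the neuronal proteolipid gene Nnat and the amino acid transporter gene Slc38a4. Their values allow no statement on a difference. Zrsr1, a gene related to a splicing factor, had no probe set annotated to it alone, like Rtl1, Dio3 and H19.

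Grouped by the expressed copy, 5 of 9 measured maternally expressed genes were detected, with Meg3, Rian and Igf2r higher and Phlda2 and Tssc4 lower. Of 16 measured paternally expressed genes 7 were detected, with Dlk1, Igf2, Ndn, Mest and Sgce higher and Plagl1 and Impact lower. The 5 genes whose allele depends on tissue were all detected, with Gnas and Copg2 higher and Ube3a, Grb10 and Dcn lower. The floor fixed the sign of Rian, Dlk1, Igf2, Mest and Plagl1, each above it on only 1 array in its brightest probe set. The median log2 differences were 0.52 for the maternal, 0.12 for the paternal and -0.15 for the tissue-dependent group. The maternal median is the bound of Rian and the paternal median the bound of Mest, so neither is a measured size. Values went both ways in each group, but several were small. Impact stood at -0.02, within the SD between probe sets, and its other detected probe sets were higher (1.30 and 0.17). The paternal group thus held no lower gene beyond that SD with both arrays above the floor. Gnas (0.09) and Copg2 (0.07), the higher tissue-dependent genes, and Tssc4 and Ube3a were within the SD too. No group difference was tested.

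**Figure D4:**
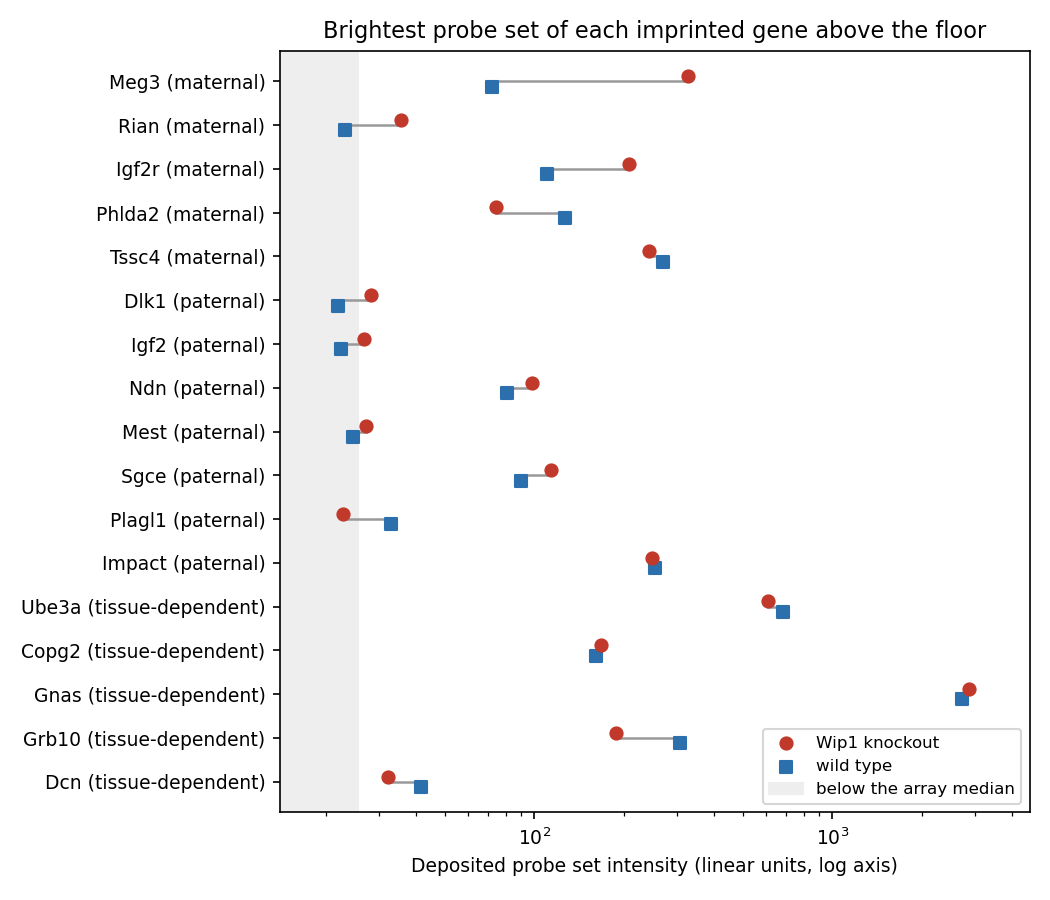
Deposited intensity (log axis) of the brightest probe set of each of the 17 detected imprinted genes on the Wip1 knockout array (circles) and the wild-type array (squares), grouped by expressed parental allele. The gaps are widest for Meg3, and Rian, Dlk1, Igf2, Mest and Plagl1 have 1 array in the grey range below the array medians.

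A list of 43 other imprinted genes went both ways, with 26 detected of 37 measured, 14 higher and 12 lower, 0 past 1.5-fold and a median of 0.01. Those that differed most were Kcnq1ot1, the paternally expressed RNA that silences Phlda2 and its neighbours (180 in the knockout and 130 in the wild type), Pon3 (70.9 in the knockout and 96.5 in the wild type) and Ins2 (37.4 in the knockout and 46.8 in the wild type). The log2 differences were 0.48, -0.43 and -0.31, and the 3 detected Kcnq1ot1 probe sets included 1 that was lower. Of 23 genes whose proteins set, keep or read imprints 19 were detected, 9 higher and 10 lower, 0 past 1.5-fold, with a median of -0.0037. The methylation enzyme genes Tet2 and Dnmt3a and the imprint-keeping zinc finger gene Zfp445 differed most, at 0.38, 0.34 and 0.31, and a dimmer Tet2 probe set stood at 1.03.

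The samples also differed in other ways whose part in these results was not tested. Xist, the RNA of the silent X chromosome, read 3778 in the knockout and 6228 in the wild type, the Y-linked Eif2s3y read 149 in the knockout and 31.8 in the wild type, and both Ppm1d probe sets differed by less than 0.21 on the log2 scale. All 11 measured markers of stem and progenitor cells were detected, 7 higher and 4 lower with a median log2 difference of 0.13. Their summed intensity was 7588 in the knockout and 5312 in the wild type, of which Flt3 gave 2112 in the knockout and 892 in the wild type. Slamf1 (-0.66) and Mecom (-0.08) were among the lower ones. Neutrophil markers, detected in 7 of 7, summed to 10787 in the knockout and 13352 in the wild type, and macrophage markers, detected in 5 of 6, to 1044 in the knockout and 515 in the wild type. Megakaryocyte markers summed to 585 in the knockout and 822 in the wild type. Stromal and endothelial cells are known to express Meg3, Igf2 and Dcn. Of their 12 markers 5 were detected, 3 higher and 1 lower with a median log2 difference of 0.03. The 12 summed to 794 in the knockout and 548 in the wild type, of which Pdgfrb gave 525 in the knockout and 281 in the wild type. Col1a2 was also detected, with 77.7 in the knockout and 76.7 in the wild type, while Col1a1, Lum, Pdgfra and Cdh5 lay under the floor on both arrays. Of 28 measured marker genes of non-blood tissues 28.6% lay above the floor, so that a dim detected gene such as Igf2 or Dlk1 is not shown to be expressed.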

How the data were processed

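Total RNA of haematopoietic stem cells was hybridised to 1 Affymetrix array for Wip1 knockout and 1 for wild type. The table that the authors deposited holds linear intensity values of 45037 probe sets, already summarised from the probes. Per the submitters' processing notes MAS5 was used, with no version or settings, and how the arrays were scaled is not stated. On both arrays 2535 probe sets (5.63%) held the same value, so small differences depend on an unknown step. No detection call or background was used. With 1 array per genotype, their number limits the precision and no test was possible.

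Probe sets were named through the platform annotation: 34945 had 1 gene, 932 had several and 9160 had none. Symbols were updated by gene ID for 34741. Intensities were converted to log2 and centred on the median difference of detected probe sets of 1 gene, a shift of -0.01. Values under the floor, each array's median, were set to it, which makes a difference a bound. A bound on the wrong side counted as 0. Each gene was represented by its brightest probe set, the one with the highest mean log2 intensity. The procedure was tested on simulated data in which changes past 2-fold were put into bright genes only. That test does not cover dim probe sets or smaller changes. Python 3.11.15, numpy 2.4.6, pandas 2.3.3, statsmodels 0.14.6 and matplotlib 3.10.9 were used.

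Every member was to be named, those detected with the values of their detected probe sets, Meg3 probe sets singly, and the 3 largest differences in each of 2 further lists. The members and lists were chosen with earlier results of these data known. Dntt, Itgb5 and the marker genes were named after their values were seen. Alternatives changed the scaling (none, quantile, loess), the floor or offset, and the probe sets used.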

Additional observations from a re-analysis of the deposited data

How the results depend on the processing

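Of the 17 detected members, 16 kept the sign of their difference in every one of up to 8 alternatives in which they were detected, and Impact changed sign in 1 (0.17 as the median of its probe sets, against -0.02). For Rian, Dlk1, Igf2, Mest and Plagl1 the floor itself fixed the sign in the main setting. The median difference of the members lay between 0.04 and 0.13. The number of detected members was 27 with a floor at the 25th percentile and 10 at the 75th, where the number at least 1.5-fold lower was 1 and 12 of the other imprinted genes were detected. Meg3, Igf2r, Phlda2 and Sgce have only bounds with the floor at the 75th percentile, which 1 of their 2 values does not reach. Leaving out _s_at, _x_at and _a_at probe sets left 12 members detected, with 4 past 1.5-fold upward and 1 downward. Grb10 has no value there, because its detected probe set 1425458_a_at was among those left out. Meg3 was between 1.42 and 2.57 as a gene, and the median of its detected probe sets was 0.18 with a floor at the 25th percentile, which adds dim probe sets, 1.03 with the floor as an offset and 0.071 without the _s_at, _x_at and _a_at classes. Without Meg3, chosen after the data were seen, 0 members passed 2-fold and 1 passed 1.5-fold upward. No paired analysis was possible because each genotype has 1 array.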
